A study of Mus musculus with 3 samples.

Results

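The genes compared here encode matrix metalloproteinases (MMPs), ADAM and ADAMTS metalloproteinases, their tissue inhibitors (TIMPs), plasminogen activators, proprotein convertases and serpins. They were compared between tissues of early mouse kidney formation that differ in stage and in the part dissected. The members were taken by symbol from the arrays' gene annotation and needed a value on every array, which left 93 genes, measured by 98 probes, of 14047 genes in all. A further 7 genes of these families lacked a value on at least 1 array. Membership rested on the symbol and on having a value on each array, not on the size or sign of a ratio.

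Metanephroi taken 11.5 days post coitum (dpc) were in channel 2 and metanephric mesenchyme of 10.5 dpc in channel 1. They were hybridised together on 3 Compugen mouse oligonucleotide arrays. Stage and tissue differ together between the channels, so they cannot be told apart. Both tissues were microdissected from CD1 embryos, a pool of both sexes, with no other genotype or treatment, and their RNA was amplified and labelled through amino allyl nucleotides. Arrays 1 and 2 are labelled red/green and array 3 green/red. The labels do not say whether the arrays came from separate dissections, so the p-values cover only how far these 3 arrays differ, and that may be a technical spread.

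Every value below is a log2 ratio of the channels as the authors normalized it. The labels do not state which tissue is the numerator, so the sign of a ratio separates the tissues but does not name the one with more RNA. Whether array 3 was turned to match the other arrays is not stated either, and it was used as deposited. In that form its Spearman correlation over all 14047 genes was positive, at 0.26 with array 1 and 0.21 with array 2. The arrays hold whole tissue, in which fewer cells of a type and less RNA per cell cannot be told apart.

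Ratios do not show whether a marker is absent from a tissue. By limma, 0 markers of the dissected tissues or their neighbours had an adjusted p under 0.05. Their counts at an unadjusted p under 0.05 stand against 19.6% of all genes. Of 12 metanephric mesenchyme markers 3 had an unadjusted p under 0.05, all positive, with Wt1 at 1.75 ± 0.04. On all arrays 4 of the 12 were positive and 2 negative, against 22.9% and 22.5% of all genes. The negative ones were Osr1 at -0.36 ± 0.08 and Hoxa11 at -0.36 ± 0.10, and the list's median was 0.12. Of 6 stromal markers 4 had an unadjusted p under 0.05, all positive, with Foxd1 at 1.56 ± 0.17. Of 12 ureteric bud markers 1 was positive and 3 negative at that p. Of 9 limb bud markers 6 were negative and 0 positive, of 10 somite and muscle markers 5 were negative and 1 positive, and of 8 erythroid markers 1 was negative. The muscle actin gene Acta1 averaged -4.96 ± 0.92, or -2.05 with array 3 turned the other way. The part of such neighbouring tissue in the protease ratios was not tested.

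Extracellular proteases cut collagens, proteoglycans and cell surface proteins, and release or destroy signalling molecules held in the matrix. MMPs and ADAMs use a zinc ion at the active site and are held in check by TIMPs, while the plasminogen activators are serine proteases, blocked by serpins that trap the enzyme in an irreversible complex. In the embryonic kidney, matrix remodelling accompanies the ingrowth and branching of the ureteric bud, and membrane-type MMPs and gelatinases are known from studies of that process. Many clade A serpins are plasma proteins, made in quantity by liver and, in the embryo, by the visceral yolk sac.

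The member with the smallest p belonged to the Serpina1 genes, which encode the mouse forms of alpha-1-antitrypsin, the plasma inhibitor of neutrophil elastase. Serpina1a, Serpina1c, Serpina1d and Serpina1e were negative on all 3 arrays, with means from -0.64 to -2.14, and Serpina1b was not. Their promoters are shown because 4 of these genes share a sign on every array and all lie on chromosome 12. The sequences are RefSeq's on build GRCm38.p6, minus strand, 5′ to 3′, each 116 bases long and aligned on the letters GTTAAT, in capitals. Those letters are the half-site of the consensus for HNF1, a homeodomain factor of liver and yolk sac.
Serpina1a, chr12:103863585-103863700: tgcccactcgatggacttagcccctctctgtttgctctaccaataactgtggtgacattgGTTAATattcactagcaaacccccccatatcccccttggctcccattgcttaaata
Serpina1b, chr12:103738160-103738275: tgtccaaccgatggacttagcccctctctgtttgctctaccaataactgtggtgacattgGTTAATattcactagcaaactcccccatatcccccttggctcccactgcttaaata
Serpina1c, chr12:103904922-103905037: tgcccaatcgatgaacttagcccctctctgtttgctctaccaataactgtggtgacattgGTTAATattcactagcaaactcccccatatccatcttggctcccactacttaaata
Serpina1d, chr12:103773594-103773709: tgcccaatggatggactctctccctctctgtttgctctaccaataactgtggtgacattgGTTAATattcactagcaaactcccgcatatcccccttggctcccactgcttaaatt
Serpina1e, chr12:103956920-103957035: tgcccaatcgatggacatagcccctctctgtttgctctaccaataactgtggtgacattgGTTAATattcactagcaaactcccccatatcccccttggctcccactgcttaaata

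The windows were identical at 90.5% to 97.4% of positions in pairs, and the 5 promoters shared an unbroken run of 59 bases around the motif. GTTAAT was searched on both strands over 250 bases before to 50 bases after each start. It stood in all 5 of these promoters and in 9 of 61 members with a promoter. The share was 8.24% of 27025 genes with a promoter, and 6.38% of the 10965 of them measured on all arrays. The 5 promoters are near copies and are among the 9, so they cannot be counted as separate matches. Serpina1b, whose values differed from those of its neighbours, holds the same run. A match of letters is a description of the window and says nothing of binding.

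Across the families, 0 of 93 members passed an adjusted p of 0.05 by limma, against 0% of 14047 genes, and the smallest adjusted p of a member was 0.151. An unadjusted p under 0.05 was reached by 11 members, which is 11.8%, against 19.6% of all genes. Of these, 5 were positive, against 9.89% of all genes, and 6 were negative, against 9.69%. All arrays had 1 sign for 38 members, against 45.5% of all genes. Of these 18 were positive, against 22.9%, and 20 negative, against 22.5%. The negative ones include Adamts9, whose probes opposed each other on every array. A size of 0.5 or more on each array, with 1 sign, was reached by 5 members, against 9.11% of all genes, namely Serpina1a, Serpina1c, Serpina1e, Adamtsl1 and Mmp23. Each of these shares of the members lay below or near that of all genes. The mean was positive for 51 members, against 49.8%, and negative for 42, against 50.2%. The median of the members' mean log2 ratios was 0.02, from -2.14 to 1.48, against -0.0019 over all genes.

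**Figure D1:**
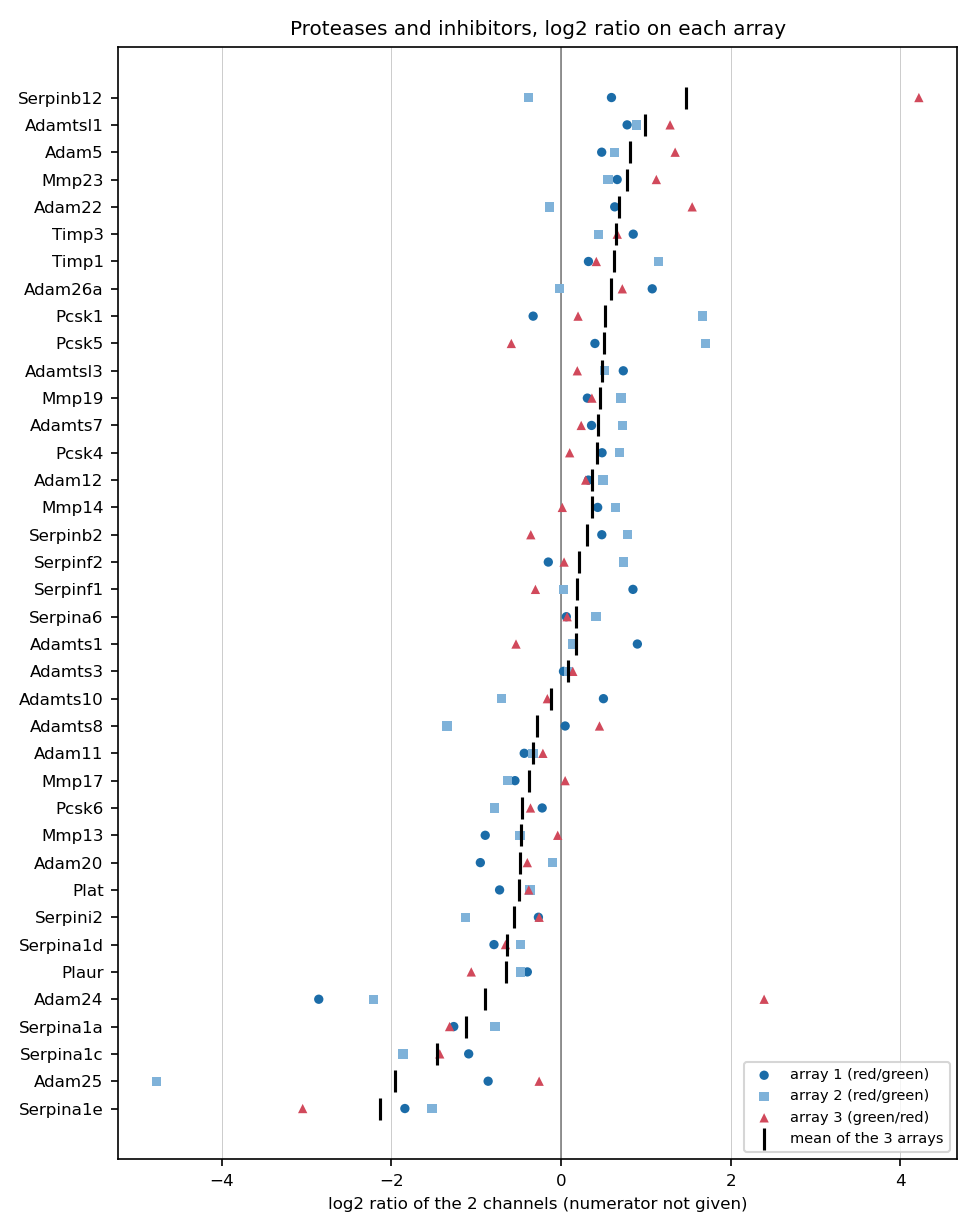
Log2 ratio of the channels on arrays 1 (circles), 2 (squares) and 3 (triangles) for the 38 members named by rule, with the mean of the arrays as a vertical bar, ordered by mean. The Serpina1 genes at the bottom have 3 points left of 0, while Serpinb12 at the top and Adam24 near the bottom have array 3 far from the other arrays.

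Serpina1e was at -1.84, -1.52 and -3.05 on arrays 1, 2 and 3, a mean of -2.14 ± 0.80 (SD, n = 3). Serpina1c was at -1.09, -1.86 and -1.43, with a mean of -1.46 ± 0.39. These 2 members exceeded 1 in log2 size on each array, as did 1.66% of all genes. Serpina1a had -1.27, -0.78 and -1.31, a mean of -1.12 ± 0.30, and Serpina1d had -0.79, -0.48 and -0.66, a mean of -0.64 ± 0.16. The adjusted p by limma ran from 0.151 for Serpina1c to 0.175 for Serpina1d, so none passed over all genes. These paralogs are nearly identical in sequence and oligonucleotide probes may share their RNA, so the 4 genes cannot be counted as separate observations.

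The other clade A serpins had no unadjusted p under 0.05. Serpina1b had -0.43, -0.31 and 0.82 and Serpina1f, a relative known from the epididymis, had 2.31, 1.19 and -0.70, so that both had array 3 on the side opposite to arrays 1 and 2. Serpina3n, an acute phase inhibitor, was at -0.07, -1.08 and -0.27, and Serpina5, the protein C inhibitor, at -0.11, -0.02 and -0.27, so both were negative on all arrays too. Serpina6, which carries corticosteroids in blood and does not inhibit proteases, had 0.06, 0.41 and 0.07. All 11 clade A members lie on chromosome 12. Of them 6 were negative and 1 positive on every array, against 22.5% and 22.9% of all genes. The 6 include Serpina1a, Serpina1c, Serpina1d and Serpina1e, which cannot be counted as separate observations.

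Several yolk sac and liver genes lay on the negative side with the Serpina1 genes. Of 12 measured markers of these tissues, 5 were negative and 5 positive on all arrays, against 22.5% and 22.9% of all genes. An unadjusted p under 0.05 was reached by 5, all of them negative, against 9.69% of all genes. The means ran from -1.68 to 2.14 with a median of -0.34. The list's median was -0.54, 0.02 and 0.10 on arrays 1, 2 and 3. Afp, the alpha-fetoprotein, was at -1.60, -1.72 and -1.72, Apoa1, the apolipoprotein of high density lipoprotein, at -1.50, -1.55 and -1.69, and Ttr, the carrier transthyretin, at -1.15, -0.97 and -1.27. Trf, transferrin, averaged -1.34 ± 0.49 and Rbp4, the retinol carrier, -0.99 ± 0.72. Positive on all arrays were Alb, albumin, at 0.36 ± 0.23, and the liver transcription factor gene Hnf4a at 0.44 ± 0.26. So were Apoh at 0.65, 0.49 and 2.19, Ahsg at 0.31 ± 0.32, and Fgb at 0.06, 0.29 and 6.05. For Fgb array 3 stood far above the other arrays. The part of such cells in the Serpina1 ratios was not tested. GTTAAT also stands in the promoters of Afp, Alb and Hnf4a in this window, and not in those of Apoa1 and Rbp4.

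**Figure D2:**
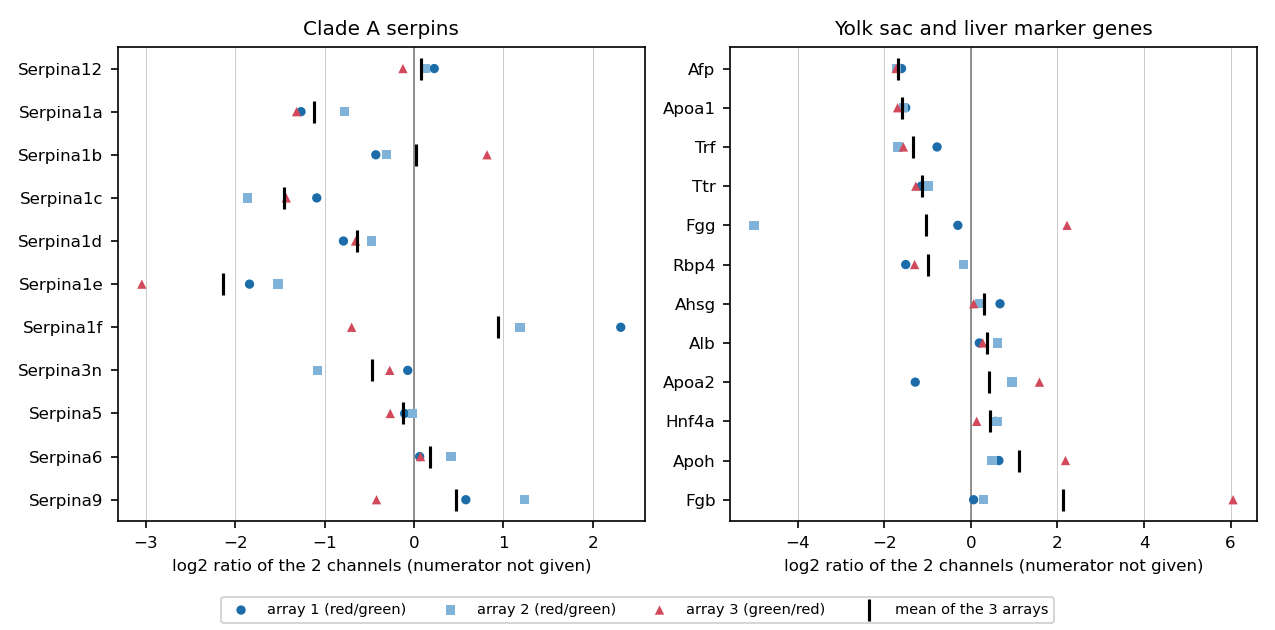
Log2 ratio on each array for the 11 clade A serpins (left) and the 12 measured yolk sac and liver markers (right), with the mean as a vertical bar. Serpina1a, Serpina1c, Serpina1d and Serpina1e lie left of 0 on every array, as do Afp, Apoa1, Ttr, Trf and Rbp4. Alb, Hnf4a, Apoh, Ahsg and Fgb lie right of it on every array.

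Protease inhibitors outside the serpins had members on both sides. In the list of other protease inhibitors 21 genes were measured. At an unadjusted p under 0.05, 3 were positive, against 9.89% of all genes, and 3 negative, against 9.69%. Itih2 and Itih4, of the inter-alpha-trypsin inhibitor heavy chain family, averaged -0.86 ± 0.16 and -0.61 ± 0.22. Itih1, Itih3 and Itih5 of the same family averaged -0.06, 0.15 and 0.10 with arrays on both sides of 0. Ambp in the same list averaged -0.12 ± 0.99, also with arrays on both sides of 0. Spink4, a Kazal-type protein of gut, had -3.40, -4.27 and -0.55. Positive were Wfdc2, a small secreted protein of epithelia, at 1.51, 1.85 and 0.85, and Tfpi2, a Kunitz-type inhibitor held in matrix, at 0.64, 1.17 and 0.98. The cysteine protease inhibitor gene Cstb averaged 0.64 ± 0.14, and Reck, a membrane-anchored MMP inhibitor, 0.32 ± 0.66 with arrays on both sides of 0.

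Inhibitors of metalloproteinases lay on the positive side or near 0. Timp3, which stays bound to matrix and also inhibits ADAM17 and aggrecanases, was at 0.85, 0.44 and 0.66, a mean of 0.65 ± 0.21 (SD, n = 3), with an adjusted p of 0.178 by limma. Timp1, a soluble inhibitor, had 0.32, 1.15 and 0.42, a mean of 0.63 ± 0.45. Both were positive on all arrays, with array 2 apart for Timp1. Timp2, which besides inhibiting MMPs helps to activate Mmp2, had 1.05, -0.13 and -0.0043, and Timp4 had 0.08, -0.22 and 0.18. The 4 TIMPs had a median of 0.47 and 1 of them, Timp3, had an unadjusted p under 0.05, against 19.6% of all genes.

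Among 17 MMPs, 3 were positive and 1 negative on all arrays, against 22.9% and 22.5% of all genes. An unadjusted p under 0.05 was reached by 2, both positive, against 19.6% of all genes. Mmp23, a membrane-tethered enzyme without the usual hemopexin domain, was at 0.66, 0.55 and 1.12, a mean of 0.78 ± 0.30 and an adjusted p of 0.176. Mmp19, which cuts basement membrane proteins, was at 0.31, 0.71 and 0.36 with its 2 probes averaged. The probe means differed, at 0.75 and 0.17. Mmp14, the membrane-type MMP that activates Mmp2 on the cell surface, was at 0.43, 0.64 and 0.01. Mmp14 was thus positive throughout but close to 0 on array 3.

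Both gelatinase genes, 2 membrane-type MMP genes and Mmp3 were negative on arrays 1 and 2 and positive on array 3. Mmp2, gelatinase A, had -0.52, -0.60 and 0.05, and Mmp9, gelatinase B, had -0.77, -1.20 and 0.62. Mmp16, which also activates Mmp2, had -0.59, -0.55 and 0.30, and Mmp17, which is held by a lipid anchor, had -0.54, -0.63 and 0.05. Mmp3, a stromelysin, had -0.30, -0.19 and 0.16. Over all members, arrays 1 and 2 negative with array 3 positive occurred 14 times, against 10.2% of all genes, and the opposite pattern 12 times, against 15.5%.

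The collagenase Mmp13 was at -0.89, -0.48 and -0.04, the 1 MMP negative on every array. It belongs to a row of MMP genes on chromosome 9, of which 7 members were measured, with means from -0.47 to 0.19. Stromelysin genes of this row, Mmp3 and Mmp10, had -0.11 ± 0.24 and -0.38 ± 0.82, and the macrophage elastase gene Mmp12 had 0.19 ± 0.24. The neutrophil collagenase gene Mmp8 had 0.09 ± 0.34, the matrilysin gene Mmp7 -0.13 ± 0.63, and the enamelysin gene Mmp20 0.01 ± 0.80. Mmp11, a stromal MMP, and Mmp24 and Mmp28 also had arrays on both sides of 0. None of these genes had an unadjusted p under 0.05 by limma.

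MMP promoters of this row are known for sites of AP-1, the dimer of Fos and Jun proteins, and the letters TGACTCA or TGAGTCA were searched on both strands in the same windows. They stood in 5 of 16 MMP and TIMP members with a promoter and in 13 of 61 members. The share was 5.95% of 27025 genes, and 5.65% of the 10965 of them measured on all arrays. The matches are shown because they fell in 5 MMP genes of chromosome 9, none with an unadjusted p under 0.05, and in Plaur, whose result follows. The windows below are 47 bases of RefSeq's GRCm38.p6, plus strand, 5′ to 3′, with the match in capitals. Serpina1a, Serpina1b, Serpina1c and Serpina1d hold the same letters too, with 0 overlaps with GTTAAT. These paralogs are among the 13 members and cannot be counted as separate matches.
Mmp3, chr9:7445756-7445802: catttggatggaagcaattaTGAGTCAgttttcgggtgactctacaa
Mmp7, chr9:7692007-7692053: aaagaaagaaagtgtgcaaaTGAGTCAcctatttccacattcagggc
Mmp10, chr9:7502259-7502305: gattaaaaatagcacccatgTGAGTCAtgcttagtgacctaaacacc
Mmp12, chr9:7347310-7347356: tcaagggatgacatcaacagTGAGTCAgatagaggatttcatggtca
Mmp13, chr9:7272459-7272505: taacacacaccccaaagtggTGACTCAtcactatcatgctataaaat
Plaur, chr7:24462394-24462440: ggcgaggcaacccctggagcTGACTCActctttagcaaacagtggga

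Genes of plasminogen activation lay on both sides of 0, with no adjusted p under 0.05 by limma. Plaur, the urokinase receptor that gathers protease at the cell surface, was at -0.40, -0.48 and -1.06, a mean of -0.64 ± 0.36 (SD, n = 3). Plat, the tissue plasminogen activator, was at -0.72, -0.37 and -0.38, a mean of -0.49 ± 0.20. Their adjusted p by limma was 0.222 and 0.229, and both were negative on all arrays. Plau, urokinase itself, had -0.14, -0.01 and 0.18, with arrays on both sides of 0.

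Of 7 measured plasminogen receptors and related binding proteins, 4 were positive and 0 negative on all arrays, against 22.9% and 22.5% of all genes. S100a10, which binds plasminogen and tissue activator in a complex with annexin A2, was at 1.43, 1.47 and 1.18, and its partner Anxa2 at 1.30, 1.33 and 0.88. Plgrkt, a membrane receptor for plasminogen, was at 0.81, 0.92 and 0.66. These 3 genes had an unadjusted p under 0.05, against 19.6% of all genes, with adjusted p from 0.149 to 0.158 by limma. The endocytic receptor genes Lrp1 and Lrp2 averaged -0.02 ± 0.22 and -0.20 ± 1.56, with arrays on both sides of 0. Vtn, vitronectin, which binds the urokinase receptor, had -1.34, -4.28 and 0.75.

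**Figure D3:**
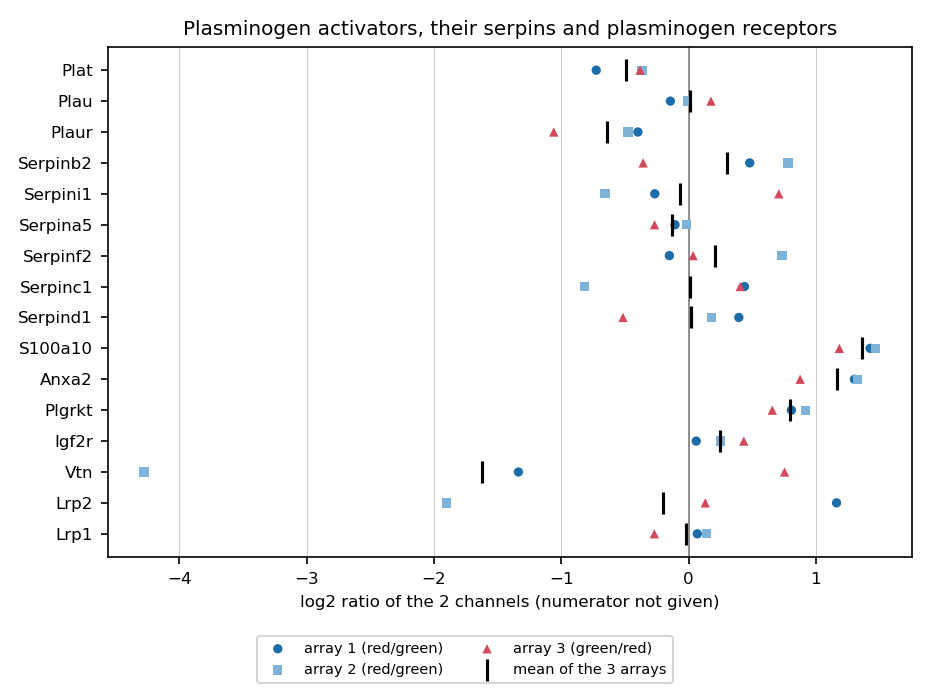
Log2 ratio on each array for the plasminogen activators Plat and Plau, the receptor Plaur, and 6 serpins of the activators, plasmin or thrombin. Also shown are 7 plasminogen receptors and related binding proteins, with the mean of each gene as a vertical bar. Plat and Plaur lie left of 0 and S100a10, Anxa2 and Plgrkt right of 0 on all 3 arrays, while 5 of the 6 serpins have arrays on both sides of it.

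The serpins that block these enzymes or thrombin gave no common sign. Of 6 measured, 1 was negative and 0 were positive on all arrays, against 22.5% and 22.9% of all genes, with a median of 0.01. Serpinb2, which inhibits urokinase, had 0.48, 0.78 and -0.36 with its 2 complete probes averaged, while a further probe had -1.60 and -0.05 on arrays 1 and 3. Serpinf2, the inhibitor of plasmin, had -0.15, 0.73 and 0.04. Serpini1, neuroserpin, which inhibits tissue activator, had -0.07 ± 0.70. Serpinc1, antithrombin, had 0.01 ± 0.72 and Serpind1, heparin cofactor II, 0.02 ± 0.48.

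Endothelium is a known source of Plat, and macrophages carry Plaur. Of 12 measured endothelial markers 8 were negative and 0 positive on all arrays, against 22.5% and 22.9% of all genes. Their medians were -0.56, -0.41 and -0.42 on arrays 1, 2 and 3, with means from -1.12 for Cldn5 to 0.09 for Emcn. Of 12 measured macrophage markers 0 were negative and 7 positive on all arrays, against the same shares, with medians of 0.40, 0.38 and 0.37. Tyrobp, Lyz2 and Fcer1g averaged 0.70, 0.81 and 0.86, while C1qb and C1qc averaged -0.58 and -0.59. Plat thus lay on the side of the endothelial markers and Plaur on the side opposite to the macrophage markers, and their part in these ratios was not tested.

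ADAMTS-like proteins, which resemble ADAMTS proteases but lack the catalytic domain, were mostly positive. Adamtsl1 was at 0.78, 0.89 and 1.29, a mean of 0.98 ± 0.27 (SD, n = 3) with an adjusted p of 0.158 by limma. Adamtsl3 was at 0.73, 0.51 and 0.19, and Adamtsl2, which binds fibrillin and the latent form of TGF-beta, at 0.13, 0.69 and 0.20. Adamtsl5 had 0.05, -0.14 and -0.22. In all, 3 of 4 were positive on every array, against 22.9% of all genes, and 1 had an unadjusted p under 0.05, against 19.6%.

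Of the ADAMTS proteases themselves, 0 of 7 had an unadjusted p under 0.05, against 19.6% of all genes. On all arrays 2 were positive and 1 negative, against 22.9% and 22.5%. The negative 1 was Adamts9, as the average of 2 opposed probes that are given below. Adamts7, which cuts cartilage matrix proteins, was at 0.36, 0.72 and 0.24, and Adamts3, which trims procollagen and activates a lymphatic growth factor, had 0.03, 0.09 and 0.14. Adamts10, which binds fibrillin, had 0.50, -0.71 and -0.16. Of the enzymes that cut versican and aggrecan, Adamts1, known to be needed for a normal urinary tract in mice, had 0.90, 0.14 and -0.53, and Adamts8 had 0.05, -1.34 and 0.45. Adamts5 had -0.32, -0.33 and 0.34, so these 3 had arrays on both sides of 0.

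Adamts9, a protease of versican, was measured by 2 probes that disagreed on every array. The first had -1.42, -1.64 and -1.25, a mean of -1.44 ± 0.20, and the second 1.40, 0.95 and 1.12, a mean of 1.16 ± 0.23. Their average of -0.14 ± 0.18 describes neither probe. Probe means opposed each other in 493 of 916 genes measured by several probes, but only 4, Adamts9 included, had opposed probes of 0.5 or more in size on each array. The gene's direction is therefore not given by these data.

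**Figure D4:**
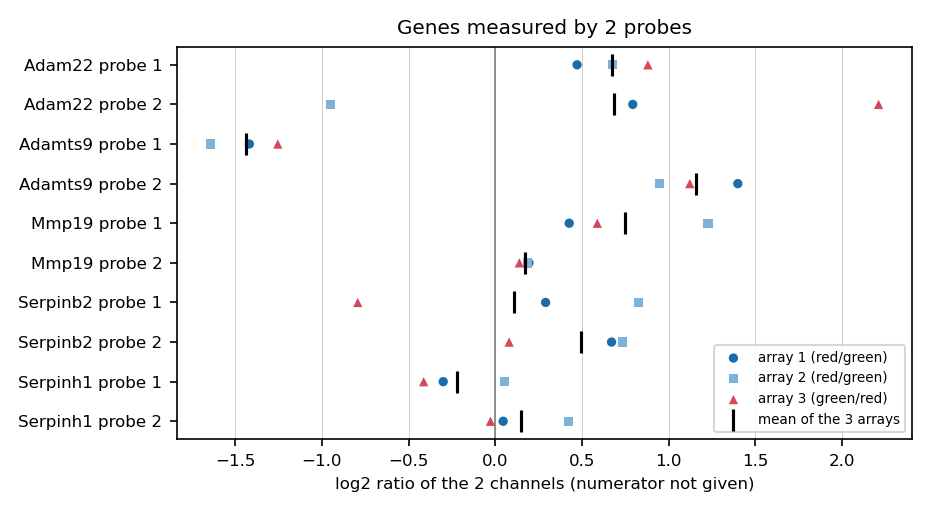
Log2 ratio on each array for each probe of the 5 members with 2 probes, with the mean as a vertical bar. The probes of Adamts9 lie about -1.44 and 1.16, on opposite sides of 0 on all 3 arrays, while the second Adam22 probe spreads from -0.95 to 2.21.

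The ADAM family had 25 members, of which 5 were positive and 4 negative on all arrays, against 22.9% and 22.5% of all genes, and 1 had an unadjusted p under 0.05, against 19.6%. Adam5, known from testis, was that gene, at 0.48, 0.63 and 1.35, a mean of 0.82 ± 0.46 and an adjusted p of 0.205 by limma. Adam12, a protease of muscle and mesenchyme that cuts growth factor precursors, was at 0.32, 0.50 and 0.29. Adam10, the main sheddase of Notch and of cadherins, had -0.81, 0.64 and 0.98. Adam9, another cell surface sheddase, had 0.0086, 0.0014 and 1.29, so its mean of 0.43 came from array 3. Adam19, Adam15, Adam8 and Adam33 had means of 0.13, 0.02, -0.14 and -0.13, each with arrays on both sides of 0.

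ADAMs known as adhesion receptors of nerve cells also varied. Adam11 was at -0.43, -0.33 and -0.21, Adam22 at 0.63, -0.14 and 1.55 with its 2 probes averaged, and Adam23 at -0.33, 0.19 and 0.25. Of sperm and testis members, Adam20 was at -0.95, -0.10 and -0.40, Adam26a at 1.08, -0.02 and 0.72, and Adam25 at -0.86, -4.77 and -0.26. The mean of -1.96 for Adam25 was -0.56 without array 2. In the list of regulators and substrates of ADAM10 and ADAM17, 25 genes were measured. At an unadjusted p under 0.05, 1 was positive, against 9.89% of all genes, and 1 negative, against 9.69%. These were the cadherin gene Cdh11 at 0.66 ± 0.32 and the tetraspanin gene Tspan33 at -0.53 ± 0.07.

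Proprotein convertases cut the propeptides of MMPs, ADAMs and growth factors inside the secretory pathway. Of 5 members 0 had an unadjusted p under 0.05, against 19.6% of all genes. Pcsk6, which processes ligands of the TGF-beta family, was at -0.22, -0.79 and -0.36, and Pcsk4, a germ cell convertase, at 0.48, 0.69 and 0.10. Pcsk5 had 0.40, 1.70 and -0.59, Pcsk1, the convertase of peptide hormones, had -0.33, 1.67 and 0.20, and Pcsk7 had -0.01, -0.13 and -0.18. For Pcsk1 and Pcsk5 array 2 stood far above the other arrays. Furin, the best known convertase and not a member by symbol, averaged -0.26 ± 0.49.

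Serpins outside clade A and the coagulation inhibitors were mixed. Serpini2, known from pancreas, was at -0.27, -1.13 and -0.26. Serpinh1, a chaperone of collagen in the endoplasmic reticulum, had a mean of -0.04 ± 0.24, with probe means of -0.22 and 0.15, and Serpinf1, a secreted factor that restrains vessel growth, had 0.85, 0.03 and -0.30. Serping1, the inhibitor of complement C1, had 0.02 ± 0.19. Clade B serpins, which mostly act inside cells, had a median of 0.11 over 9 members. On all arrays 1 was positive and 3 negative, against 22.9% and 22.5% of all genes. The positive 1 was Serpinb5, maspin, at 0.15 ± 0.11.

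The list of other pericellular enzymes held proteases and the hyaluronidase genes Hyal1 and Hyal2. Of its 28 measured genes 0 had an unadjusted p under 0.05 by limma, against 19.6% of all genes. Their means ran from -1.81 to 1.03 with a median of 0.22. Hyal2, which cuts hyaluronan, had -0.51 ± 0.33, Bmp1, the procollagen C-peptidase, -0.39 ± 0.18, and St14, matriptase, 0.56 ± 0.47. Among 18 measured matrix substrates 1 was positive and 2 negative at an unadjusted p under 0.05, against 9.89% and 9.69% of all genes. Col1a1, a chain of type I collagen, had 0.73 ± 0.31, Ncan, neurocan, -0.80 ± 0.44, and Hspg2, perlecan of basement membranes, -0.50 ± 0.27.

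Arrays of like dye order resembled each other more than they resembled array 3. Across the 93 members the Spearman correlation was 0.48 between arrays 1 and 2, which share a dye order, 0.02 between arrays 1 and 3 and -0.01 between arrays 2 and 3. Across all 14047 genes it was 0.50, 0.26 and 0.21. Genes are not independent replicates, and the members of a pair share labels and normalization, so these values are descriptions. The arrays also differed in shape over all genes, with 1% of genes below -3.44, -3.70 and -1.95 and 1% above 1.80, 2.15 and 3.34 on arrays 1, 2 and 3.

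Several members followed the dye order. Adam24, a testis protease, was at -2.86, -2.21 and 2.39, Adam28, an ADAM of lymphocytes, at -1.16, -1.45 and 0.99, and Adam21 at -0.86, -0.56 and 1.69. Serpinb9, the inhibitor of granzyme B, was at -1.24, -1.27 and 0.62. Serpinb12 reached 4.22 on array 3 against 0.59 and -0.38 on arrays 1 and 2, and its mean of 1.48 rests on array 3. Array 3 lay at least 2 above the mean of arrays 1 and 2 for 6 members, against 4.04% of all genes, and at least 2 below it for 1 member, Serpina1f, against 2.05%, together 7 members against 6.09%. Arrays 1 and 2 on 1 side and array 3 on the other were found in 26 members, against 25.6%. The dye term of the limma fit had an unadjusted p under 0.05 for 16 members, against 9.87% of all genes, and an adjusted p under 0.05 for 0 members, against 0%. Array 3 alone carries the swapped dyes, so dye and array cannot be told apart.

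**Figure D5:**
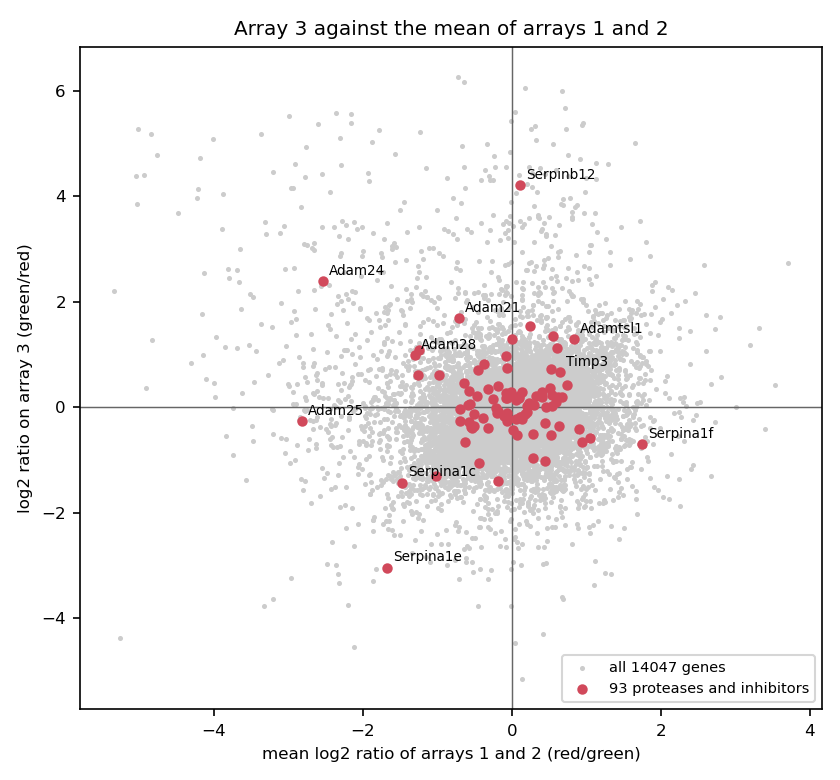
Log2 ratio on array 3 (vertical axis) against the mean of arrays 1 and 2 (horizontal axis) for all 14047 genes (grey) and the 93 proteases and inhibitors (red). Serpina1c and Serpina1e lie at lower left and Adamtsl1 at upper right, where the arrays share a sign, and Adam24 at upper left, where they do not.

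With array 3 turned the other way, 9 members had an unadjusted p under 0.05, against 5.55% of all genes, and 0 of the 11 named above were among them. They were Adam4, Adam21, Adam24, Adam28, Mmp9, Serpinb7, Serpinb9, Serpina1f and Serpina9, whose arrays 1 and 2 oppose array 3. In that setting Serpina1e averaged -0.11, Serpina1c -0.51, Adamtsl1 0.13, Mmp23 0.03 and Timp3 0.21, and Plaur turned to 0.06. Without array 1 there were 6 such members, against 8.23% of all genes, without array 2 there were 9, against 10.3%, and without array 3 there were 22, against 21%. Serpina1a, Serpina1c, Serpina1e and Adamtsl1 were among them in each of these 3 fits. With array weights 24 members passed, against 28.3%. On arrays 1 and 2 alone Serpina1e averaged -1.68, Serpina1c -1.48, Serpina1a -1.02 and Adamtsl1 0.83.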

How the data were processed

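Per the labels, images were read in Imagene 5.5, and R served for print-tip lowess and normalization between arrays. Each lowess point used 20% of the data, and a control channel under 10 was raised to 10, per the labels. The authors deposited 1 log2 ratio per probe and array, and these were used as deposited, the lowest ratio being 0.01. Intensities and depth over background were not analysed here. Precision is limited by having 3 arrays. No genome build was needed for the ratios.

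Probes of 1 gene symbol were averaged per array. Of 21918 gene probes 16656 had 1 symbol, 137 several and 5125 none. For each of 14047 genes limma 3.58.1 (lmFit, eBayes; R 4.3.3) gave a two-sided test of the mean log2 ratio, adjusted by Benjamini-Hochberg. The code was tested on simulated data. Figures were drawn with Matplotlib 3.10.9. Promoters are RefSeq's on GRCm38.p6, matched by symbol for 61 of 93 members.

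Members given on every array are the 24 of smallest unadjusted p and, in each functional class, the 2 of largest mean in size. Other members were named for their role or pattern, with their values seen. Of each other list, up to 3 were taken by p, and further genes were chosen after their values were seen. The members and lists were chosen with earlier results of these data known, and Adam20 was added to its class afterwards. Alternatives were other scalings, orientations, array and probe choices and variance models.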

Additional observations from a re-analysis of the deposited data

How the results depend on the processing

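No gene and no probe passed an adjusted p of 0.05 by limma under any of the 15 alternatives run for genes or the 5 run for probes. With array 3 turned the other way the genes at an unadjusted p under 0.05 numbered 779, against 2750 as deposited, and the probes 1158, against 3432. With an array left out the genes ranged from 1156 to 2943, the probes from 1377 to 3690, the members at that p from 6 to 22, those of 1 sign from 50 to 64, and the members' median from -0.0469 to 0.0170. Without array 3, 22 members passed, 7 of them also among the 11 found with 3 arrays, and without array 1 there were 6. Array weights gave 24 members. With array 3 turned, Adam22 had -0.35, Adam5 -0.0798, Adamts3 -0.0074, Plaur 0.0617, Serpinb12 -1.34, Alas2 0.0119, Bmp1 0.0130, Cdh11 -0.0234, Cdh2 0.0184 and St14 -0.0733, each opposite in sign to its value as deposited. With an array left out in turn, values on both sides of 0 were found for Adam24, from -2.53 to 0.0918, Adamts1, from -0.19 to 0.52, Adamts10, from -0.43 to 0.17, Adamts8, from -0.65 to 0.25, Pcsk1, from -0.0644 to 0.93, Pcsk5, from -0.0935 to 1.05, Serpinf1, from -0.14 to 0.44, and Serpinf2, from -0.0574 to 0.39. Adamts1 had -0.0049 with a dye term and Adamts10 0.14 with array weights. Each other alternative turned 0 of the 80 genes named by rule, or of the 74 with 1 probe. The cause of these changes was not tested. Leaving an array out changes both the number of arrays and which arrays remain. No paired analysis was possible because the arrays form 1 group, and each array already sets 1 tissue against the other.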

Other observations

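Among the genes of these families without a value on every array was Adam17, the sheddase of tumour necrosis factor and of ligands of the epidermal growth factor receptor, with -0.34 on array 1 and -0.44 on array 3. Interstitial collagenase genes followed no common sign, with -0.04 and -0.44 for Mmp1a and 1.05 and 2.46 for Mmp1b on arrays 1 and 3. Serpinb6a had -1.62 on array 1 and 3.88 on array 3. For Serpinb9c array 3 gave 1.42 and for Serpinb9e array 2 gave 1.41, each with no other value, and Serpinb11 had none.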
